A study of Pleurodeles waltl with 9 samples.

Results

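In the dorsal iris of the newt Pleurodeles waltl, 38 of 295141 deposited transcripts were raised at both 1 and 4 days post-lentectomy (dpl), with group means at the 2 times within a factor of 2 of each other. They were chosen from the measured values themselves. A transcript was a member if its lowest value over the 3 libraries at 1 dpl and the 3 libraries at 4 dpl was at least 200, if that value was at least 8 times the highest value in intact replicates 1 and 2 plus 1, and if its 4 dpl mean divided by its 1 dpl mean lay between 0.5 and 2. The rise over intact iris and the likeness of the 2 times are therefore given by the choice, and all values that bear on them are a description.

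The libraries came from dorsal irises of 13-month-old newts in 3 groups: intact, 1 dpl and 4 dpl, the lens of the eye having been removed surgically in the last 2 groups. Each group had 3 libraries of poly(A) RNA, and the tissue of 4 animals was pooled for each library. The labels name no strain or sex and do not say whether intact animals were anesthetized. Intact replicate 3, which the study left out for its alignment rate, was not used by the rule or the tests and is described separately.

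The lens of a newt can regrow after its removal, and it does so from the pigment epithelial cells of the dorsal iris. These cells lose their pigment, re-enter the cell cycle and turn into lens cells. Early after the operation the eye passes through wound closure, and immune cells such as macrophages gather near the iris. The pooled tissue can hold pigment epithelium, stroma, vessels and such incoming cells. In bulk RNA a change in the number of cells of one type and a change in the RNA per cell cannot be told apart.

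The deposited table gives each transcript an ID that begins with mRNA or an ID assigned by StringTie, the assembler used by the authors. None of these IDs (0 of 295141) matched the 59059 genes of the RefSeq table for assembly aPleWal1.hap1.20221129, so the members have no gene names here, their roles are not given, and the tissue could not be checked against marker genes. Of the 38 members, 30 had an mRNA ID and 8 had a StringTie ID. StringTie IDs made up 21.1% of the members, 33.3% of the 7774 transcripts with a lowest value of at least 200 after lentectomy and 45.8% of all transcripts. In the text the members are numbered by their mean value over the 6 libraries after lentectomy, from member 1 with the highest to member 38 with the lowest. The values have an unknown scale, described as a signal, and whether they are divided by transcript length is not settled. The numbering is therefore an order of deposited values and not of molecules. The IDs of 2 members are printed, that of member 1 and that of the member with the lowest maximum in the kept intact libraries.

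The members ranged widely in level, in intact iris as well as after lentectomy. Their group means lay between 0.518 and 354 (median 40.4) in intact iris, between 307 and 34114 (median 939) at 1 dpl, and between 292 and 30166 (median 904) at 4 dpl. The mean over the 6 libraries after lentectomy was under 500 for 7 members, from 500 to under 1000 for 12, from 1000 to under 2500 for 15, and above 2500 for 4. The highest of the 2 kept intact values was under 20 for 10 members, under 50 for 19 and under 100 for 30, and the other 8 members had a kept intact value of 100 or more.

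**Figure D1:**
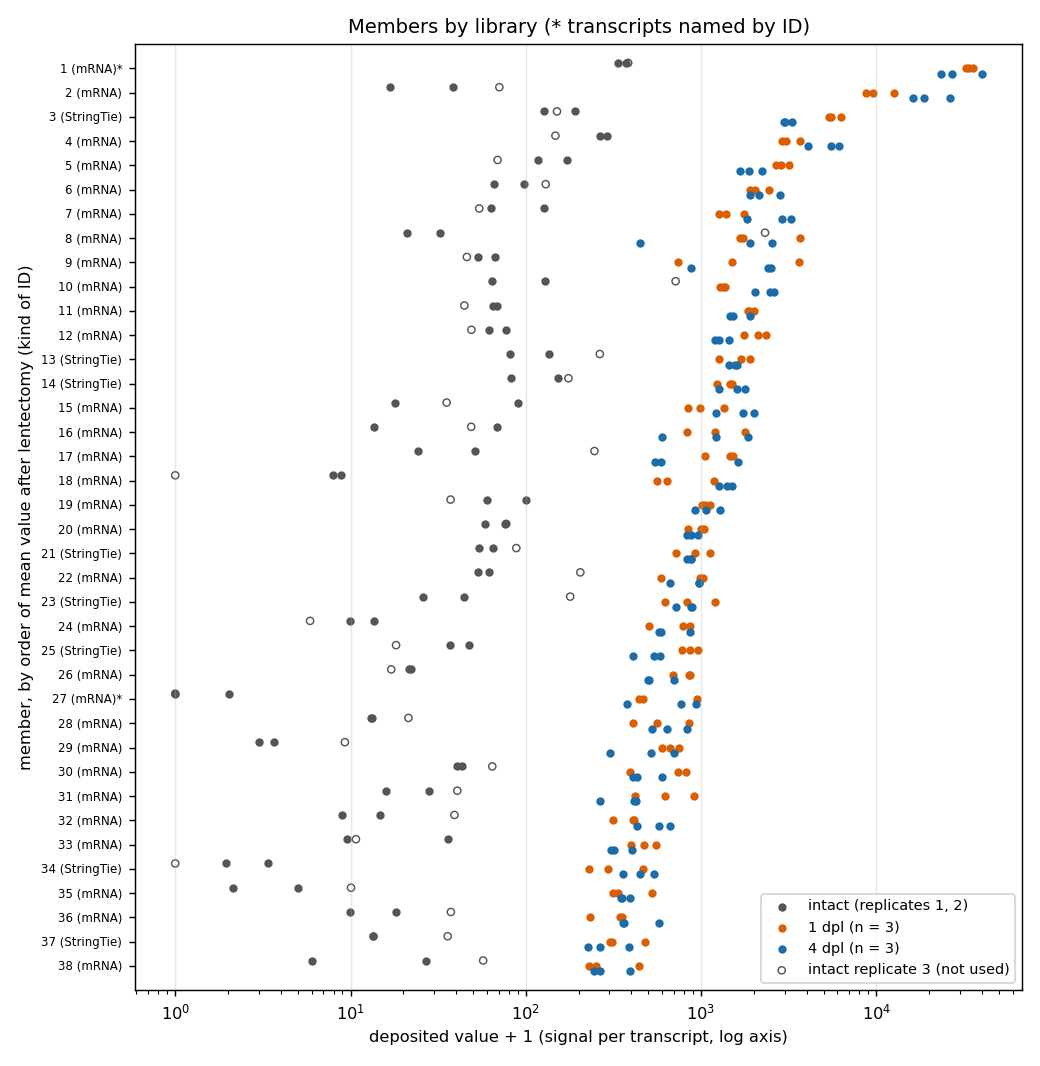
Deposited value plus 1 (signal, log axis) of each of the 38 members in each library, with members from 1 at the top to 38 at the bottom and the kind of ID in brackets. Filled gray points are intact replicates 1 and 2, orange points 1 dpl and blue points 4 dpl, 1 point per library. Open circles are intact replicate 3. Orange and blue points lie to the right of the filled gray points for every member, as the rule required.

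Member 1, mRNA24583, had by far the highest values. It was at 336.8 and 371.6 in intact replicates 1 and 2, at 35738, 33994 and 32611 in the 1 dpl libraries, and at 27069, 40164 and 23264 in the 4 dpl libraries. The 3 libraries at 1 dpl were close to each other, and the values at 4 dpl lay on both sides of them. Its means were 34114 ± 1567 at 1 dpl (SD, n = 3), 96.3 times the intact mean of 354, and 30166 ± 8865 at 4 dpl (SD, n = 3), 85.2 times the intact mean. By rank among all transcripts of a library, it stood at 8517 and 7513 in intact iris, at 46, 43 and 54 at 1 dpl, and at 79, 34 and 86 at 4 dpl. Its log2 fold change, on log2(value + 1), was 6.59 at 1 dpl (standard error 0.19) and 6.37 at 4 dpl (standard error 0.19) against intact iris. Between 4 dpl and 1 dpl it was -0.22 (standard error 0.17, adjusted p = 0.702 from limma).

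Among the 10 members with the highest values, member 2 (mRNA ID) had the largest folds over intact iris, 389 at 1 dpl and 768 at 4 dpl. Its values were 37.3 and 15.7 in intact iris, 12621, 8724 and 9568 at 1 dpl, and 18616, 26321 and 16106 at 4 dpl. All 4 dpl values were above all 1 dpl values, and its ratio of 4 dpl to 1 dpl means, 1.97, was the closest of any member to the upper limit. Member 3 (StringTie ID) went the other way between the 2 times. It had 125 and 191 in intact iris, 6330, 5391 and 5535 at 1 dpl, and 2978, 3002 and 3291 at 4 dpl, and its ratio of 0.537 was the closest to the lower limit. Member 4 (mRNA ID) had 289 and 264 in intact iris, 3679, 2892 and 3053 at 1 dpl, and 5490, 6090 and 4062 at 4 dpl, without overlap between the times. Together the members held 0.0117% and 0.0123% of the column total in intact replicates 1 and 2. They held 0.431% ± 0.0245 at 1 dpl and 0.460% ± 0.0884 at 4 dpl (SD, n = 3 each). Without the 5 members of the highest values, the shares were 0.00706% in intact iris, 0.160% at 1 dpl and 0.164% at 4 dpl, so that 5 transcripts carried more than the remaining 33 after lentectomy.

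**Figure D2:**
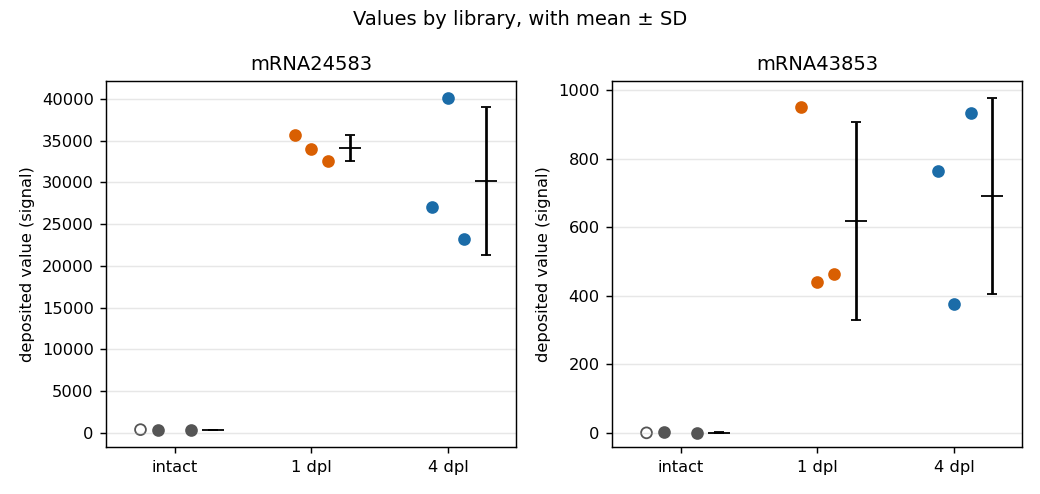
Deposited values (signal, linear axes) of mRNA24583 on the left and mRNA43853 on the right in intact iris, at 1 dpl and at 4 dpl. Points are libraries, the open circle is intact replicate 3, and the bar beside each group is the mean with its SD over intact replicates 1 and 2 (n = 2) or the 3 libraries of a later group; in both panels the 1 dpl and 4 dpl points overlap.

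No member had both kept intact libraries under 1, the amount that the rule adds to the intact value. With a limit of 5 there were 4 such members, with a limit of 10 there were 5, and with a limit of 20 there were 10. These limits are in deposited units of unknown scale. The columns of intact replicates 1 and 2 summed to 19335182 and 19534870, where TPM would sum to 1000000. A value of 1 is therefore a smaller share than 1 TPM, and the limit of 1 alone cannot decide whether members were near 0. The lowest was member 27, mRNA43853, which was at 1.04 in intact replicate 1 and listed at 0 in intact replicates 2 and 3. In intact replicate 1 it stood at rank 118102, near the end of the 123300 transcripts with a value above 0. It had 953, 439 and 463 at 1 dpl and 766, 377 and 935 at 4 dpl, so that each later group held both high and low libraries and the groups overlapped. A value of 0 in this table can be a failed estimate, and a fold over such an intact level has little meaning. The log2 fold change of mRNA43853 against intact was 8.67 at 1 dpl (standard error 0.57, adjusted p = 0.000236 from limma) and 8.83 at 4 dpl (standard error 0.57, adjusted p = 0.000164 from limma). The rule chose this member by the same contrasts, so nothing is read from these p-values. The log2 fold change also depended on the value added before the logarithm. At 1 dpl it was 10.75 with 0.1 added and 4.87 with 20 added, and at 4 dpl it was 10.91 with 0.1 added and 5.03 with 20 added.

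The other 4 members with both kept intact values under 10 were numbered 18, 29, 34 and 35. Member 29 (mRNA ID) had 2.01 and 2.66 in intact iris, 601, 663 and 746 at 1 dpl, and 515, 699 and 300.4 at 4 dpl. Member 34 (StringTie ID) had 0.944 and 2.36 in intact iris, 294, 466 and 230 at 1 dpl, and 540.1, 358 and 445 at 4 dpl. Member 35 (mRNA ID) had 1.14 and 4.00 in intact iris, 526, 313 and 336 at 1 dpl, and 349, 393 and 355 at 4 dpl. For these 3 the times overlapped. Member 18 (mRNA ID) had 6.93 and 7.78 in intact iris, 638, 1180 and 562 at 1 dpl, and 1263, 1400 and 1509 at 4 dpl, and its 4 dpl values were all the higher. Apart from mRNA43853, then, the members of the lowest intact level were listed above 0 in both kept intact libraries. Members 18, 29, 34 and 35 stood at ranks 60845, 99006, 119523 and 116108 of the 123300 transcripts above 0 in intact replicate 1. In intact replicate 2 they stood at 61662, 94890, 98775 and 81723 of 119916. By rank, then, members 34 and 35 were near the end of the list in intact replicate 1 and less so in replicate 2. Of the 76 member values in these libraries, 1 was listed at 0.

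Against intact iris, the median over members of the fitted log2 fold change was 4.73 at 1 dpl and 4.64 at 4 dpl, where the median over all 154825 transcripts tested was 0.03 at 1 dpl and -0.12 at 4 dpl. Single members ranged from 3.53 to 8.67 at 1 dpl and from 3.49 to 9.62 at 4 dpl. All 38 members had passed the minimum mean value of 0.5. In limma with Benjamini-Hochberg adjustment over all tested transcripts, all 38 were called higher at 1 dpl, where 0.971% of the tested transcripts were, and all 38 were called higher at 4 dpl, where 1.37% were. The same contrasts chose the members, the 2 comparisons share the intact libraries, and nothing is read from these counts. Without an intensity trend in the variance, 23 members were called at 1 dpl (0.0749% of all tested) and 29 at 4 dpl (0.134%). Without intact replicate 1, 35 members were called at 1 dpl (0.396% of all tested) and 35 at 4 dpl (0.529%), and without intact replicate 2, 33 at 1 dpl (0.238%) and 33 at 4 dpl (0.310%). With intact replicate 3 included, 37 were called at 1 dpl (1.09%) and 37 at 4 dpl (1.31%). With only the groups compared in the fit, 36 were called at 1 dpl (0.440%) and 38 at 4 dpl (1.18%). With the replicate number as a block, 38 were called at 1 dpl (0.512%) and 38 at 4 dpl (0.765%). The study calls the libraries of a group biological replicates, each a pool of animals. The p-values therefore rest on the spread between pools, together with the intensity trend in the variance.

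**Figure D3:**
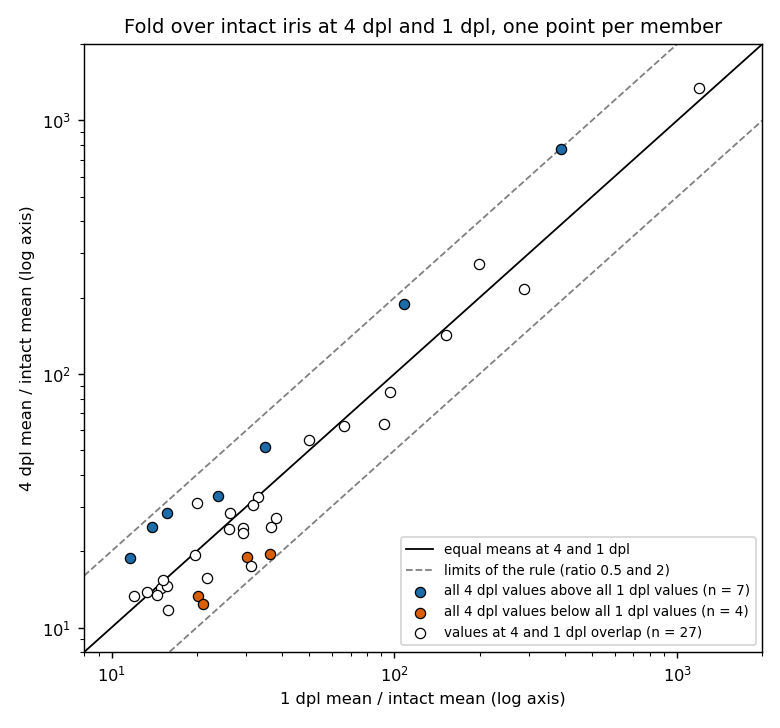
Fold of the 4 dpl mean over the intact mean against the fold of the 1 dpl mean over the intact mean for the 38 members (log axes, intact mean of replicates 1 and 2). The solid line marks equal means, the dashed lines the ratios of 0.5 and 2 that the rule allowed; blue points (7) had all 4 dpl values above all 1 dpl values, orange points (4) had them all below, and white points (27) overlapped.

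The members were alike at 4 and 1 dpl only within the factor that the rule allowed. Their ratio of 4 dpl to 1 dpl means had a median of 0.944 and ran from 0.537 to 1.97. It lay from 0.8 to 1.25 in 18 members, from 0.5 to 0.8 in 11 and from 1.25 to 2 in 9. The median over members of the fitted log2 fold change between 4 dpl and 1 dpl was -0.06, where that over all tested transcripts was -0.24. Over the 7774 transcripts with a lowest value of at least 200 after lentectomy, the median ratio of the means was 1.03, against 0.944 for the members. None of the 38 (0) was called between 4 dpl and 1 dpl by limma at an adjusted p under 0.05, where 0.648% of all tested transcripts were. At an unadjusted p under 0.05 in limma there were 9 of the 38 members and 15354 of the 154825 transcripts tested. With the replicate block 0 members were called as well, where 0.329% of all tested transcripts were. At an unadjusted p under 0.05 in limma the block gave 9 of the 38 members and 15096 of the 154825 transcripts tested. This number of members depended on the fit. Without an intensity trend in the variance it was 0, with 12961 of the 154825 transcripts. With intact replicate 3 included it was 4, with 12354 of 184122 transcripts. In limma, 1 member was called, lower at 4 dpl, when the minimum mean value was 20 (5.79% of all tested called in either direction), when libraries were rescaled to a total of 1000000 (4.94%), or when only these 2 groups were fitted (0.397%). The rule used the ratio, and the absence of calls does not show that the members had equal levels.

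In 11 members (28.9%) the libraries of 4 dpl and 1 dpl did not overlap, compared with 13.7% of all tested transcripts and 43.5% of the 7774 transcripts with a lowest value of at least 200 after lentectomy. Without 4 dpl replicate 2 the number was 17. Fewer libraries overlap less by construction, and the share of all transcripts without this library is not given here. Of the 11, 7 were higher at 4 dpl: members 2, 4 and 18, described above, and members 7, 10, 32 and 36, all with mRNA IDs. Member 10 had 2625, 2042 and 2459 at 4 dpl against 1328, 1376 and 1275 at 1 dpl, with a wide gap between the times. Member 7 had 2890, 3259 and 1817 at 4 dpl against 1759, 1262 and 1384 at 1 dpl, so that its lowest library at 4 dpl was close to its highest at 1 dpl. Member 32 had 669, 578 and 431 at 4 dpl against 313, 409 and 412 at 1 dpl. Member 36 had 360.1, 571 and 360.1 at 4 dpl against 355, 230.4 and 344 at 1 dpl, a gap of a few units.

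The 4 members that were lower at 4 dpl than at 1 dpl without overlap were 3, 5, 12 and 25. Member 5 (mRNA ID) had 1658, 2221 and 1879 at 4 dpl against 2660.1, 3179 and 2861 at 1 dpl. Member 12 (mRNA ID) had 1259, 1451 and 1197 at 4 dpl against 2334, 2115 and 1754 at 1 dpl. Member 25 (StringTie ID) had 581, 537 and 407 at 4 dpl against 780.2, 859 and 963 at 1 dpl. These 4 still stood well above intact iris at 4 dpl, by 19.5-, 13.3-, 19.0- and 12.3-fold in the order of their numbers, on the means.

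The members closest to a plateau were those with the least spread over the 6 libraries after lentectomy. The highest of these 6 values was less than 2 times the lowest in 17 members (44.7%), against 60.5% of the 7774 transcripts with a lowest value of at least 200. Member 20 (mRNA ID) was the steadiest of the 38, with a factor of 1.25. It had 74.8 and 57.4 in intact iris, 993, 837 and 1035 at 1 dpl, and 880.4, 965 and 829.7 at 4 dpl. Member 11 (mRNA ID) had 64.4 and 67.5 in intact iris, 1864, 1868 and 2016 at 1 dpl, and 1472, 1898 and 1513 at 4 dpl. Member 19 (mRNA ID) had 99.3 and 59.5 in intact iris, 1009, 1121 and 1046 at 1 dpl, and 1289, 1068 and 923 at 4 dpl. In these 3, the libraries at 1 and 4 dpl overlapped.

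In 5 members the factor between the highest and the lowest library after lentectomy was above 3. Member 8 (mRNA ID) varied most, by a factor of 8.17, with 1675, 1729 and 3653 at 1 dpl and 447, 2541 and 1903 at 4 dpl, so that a single library at 4 dpl was low. Member 9 (mRNA ID) had 1501, 742 and 3618 at 1 dpl and 2402, 2519 and 872 at 4 dpl, and its means of 1954 and 1931 were nearly the same while libraries within each group differed more than the groups. The others were members 2, 16 and 31. The median over members of the SD of log2(value + 1) was 0.29 at 1 dpl and 0.30 at 4 dpl, against 0.21 and 0.21 over the 7774 transcripts. Within 4 dpl, 23 members were highest in replicate 2 and 20 were lowest in replicate 3. Their median deviations from the group mean of log2(value + 1) were 0.17 and -0.15. At 1 dpl no replicate led in this way, with 16, 10 and 12 members highest in replicates 1, 2 and 3. The same counts over all transcripts are not given here. Of the 4 dpl libraries, replicate 3 had the lowest column total, 19509990, and the lowest median over the 7774 transcripts. That median was 677, against 749 in replicate 1 and 722 in replicate 2. Whether such library-wide differences play a part was not tested.

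Of the 8 members with a StringTie ID, each lay in a separate StringTie gene, and 7 of these genes held other assembled transcripts, 33 in all, none of them a member. Salmon divides reads between transcripts that share sequence, so the values within a gene depend on each other. In 6 of the 7 genes the member took a larger share of the gene's summed value in every library after lentectomy than in intact replicates 1 and 2. Since the members were chosen for their rise, a larger share is favored by the choice. Of the 33 other transcripts, 13 were above both kept intact libraries in all 6 later libraries, compared with 4.73% of all tested transcripts, and 1 was below both in all 6. Their genes were chosen through a member's rise, and values within a gene depend on each other. The 4.73% covers transcripts of all levels, so nothing is read from this comparison. The gene of member 23 alone held 24 of the 33 and 8 of the 13.

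**Figure D4:**
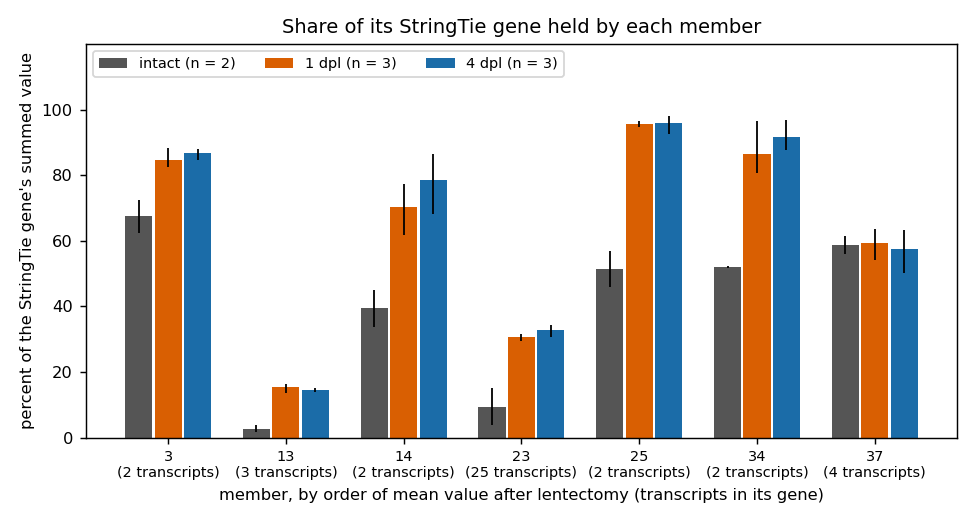
Percent of the summed value of a StringTie gene that its member held, in intact iris (replicates 1 and 2), at 1 dpl and at 4 dpl, for the 7 members whose gene had other assembled transcripts. Bars are means over libraries, lines run from the lowest to the highest library, and the number of transcripts in the gene stands below each member's number; only for member 37 does the range after lentectomy overlap the range in intact iris.

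In the gene of member 25 the member rose and the other transcript did not. The member held 51.3% of the gene's value in intact iris, 95.5% at 1 dpl and 95.8% at 4 dpl. The only other transcript had 41.2 ± 19.8 in intact iris (SD, n = 2), 41.2 ± 11.3 at 1 dpl and 20.6 ± 11.4 at 4 dpl (SD, n = 3 each), so that the gene's summed value, 11.0-fold higher at 1 dpl and 6.42-fold higher at 4 dpl than in intact iris, followed the member. The gene of member 13 was different. Its leading transcript, not a member, was already at 3571 in intact iris and had 8803 ± 883 at 1 dpl and 8960 ± 158 at 4 dpl (SD, n = 3 each). The 1 transcript that was below both kept intact libraries in all 6 later libraries also lay in this gene. It had 455 and 180 in intact iris, 24.4, 48.4 and 77.4 at 1 dpl, and 23.3, 25.1 and 80.2 at 4 dpl. Member 13 itself had 80.1 and 135 in intact iris, 1265, 1687 and 1893 at 1 dpl, and 1610, 1552 and 1444 at 4 dpl, and its share was 2.77% in intact iris, 15.3% at 1 dpl and 14.6% at 4 dpl. The gene as a whole was 2.62-fold higher at 1 dpl and 2.64-fold higher at 4 dpl than in intact iris, against 15.0-fold and 14.3-fold for member 13 alone, a minor transcript of the gene.

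In the gene of member 37 the share of the member changed little. It held 58.6% in intact iris, 59.4% at 1 dpl and 57.6% at 4 dpl. The 3 other transcripts summed to 8.81 in intact iris, 260.1 at 1 dpl and 214 at 4 dpl, although of these 3 only 1 was above both kept intact libraries in all 6 later libraries. Member 23 belonged to the largest gene, with 25 transcripts, of which it held 9.35% in intact iris, 30.6% at 1 dpl and 32.9% at 4 dpl. Summed per StringTie gene, the rule took 34 genes and mRNA IDs in place of 38 transcripts. The mRNA IDs carry no gene in the table, so other transcripts of their genes could not be assigned.

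The numbers in the mRNA IDs of 7 members lay within 10 of another member's number, in 3 runs. What the numbering stands for is not stated, and the IDs may belong to neighboring genes, to copies of one gene or to parts of one gene model. One run held members 2, 31 and 35 within 8 numbers. Member 31 had 15.0 and 26.9 in intact iris, 625, 913 and 417 at 1 dpl, and 411, 425 and 264 at 4 dpl. The 5 IDs between these members had no value above 10 in any library. The second run held members 24 and 29 within 5 numbers. Member 24 had 8.98 and 12.6 in intact iris, 506, 791 and 860.2 at 1 dpl, and 588, 860 and 573 at 4 dpl. The 3 IDs between them were also above both kept intact libraries in all 6 later libraries but were less even. They had means of 249 ± 262, 98.1 ± 61.3 and 105 ± 84.6 at 1 dpl and 214 ± 148, 37.0 ± 7.32 and 426 ± 355 at 4 dpl (SD, n = 3 each). The third run held members 5 and 33 within 3 numbers. The ID between them was listed at 0 in every library. Member 33 had 8.52 and 35.1 in intact iris, 471, 552 and 398 at 1 dpl, and 318, 307 and 404 at 4 dpl. If such IDs share sequence, their values are uncertain, because the quantification could have split reads between them.

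Intact replicate 3 is a library that the rule did not use, and it stood apart from the others. Its column total was the lowest, 17541441, against 19335182 to 22023433 in the other libraries, and its smallest value above 0 was 1.53, against 0.174 to 0.382. Its median over the 7774 transcripts was also the lowest, 393, against 592 to 749 in the other libraries. In this library 37 of the 38 members (97.4%) were below their lowest value after lentectomy, where 63.8% of the 7774 transcripts with a lowest value of at least 200 were. In 26 members (68.4%) it was under an eighth of that value, compared with 2.60% of the 7774 transcripts and 66.0% of the 50 transcripts raised at both times at any ratio, which include the members. The 26 became 24 with each library rescaled to the mean total and 31 with median-of-ratios rescaling. Intact replicate 3 is 1 library, it shares its condition with the libraries that the rule used, and the comparison was not tested. The lowest value after lentectomy, to which it was compared, is itself a value that the rule used. The 7774 transcripts were not chosen for a rise over intact iris, so a gap to their share is favored by the choice.

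**Figure D5:**
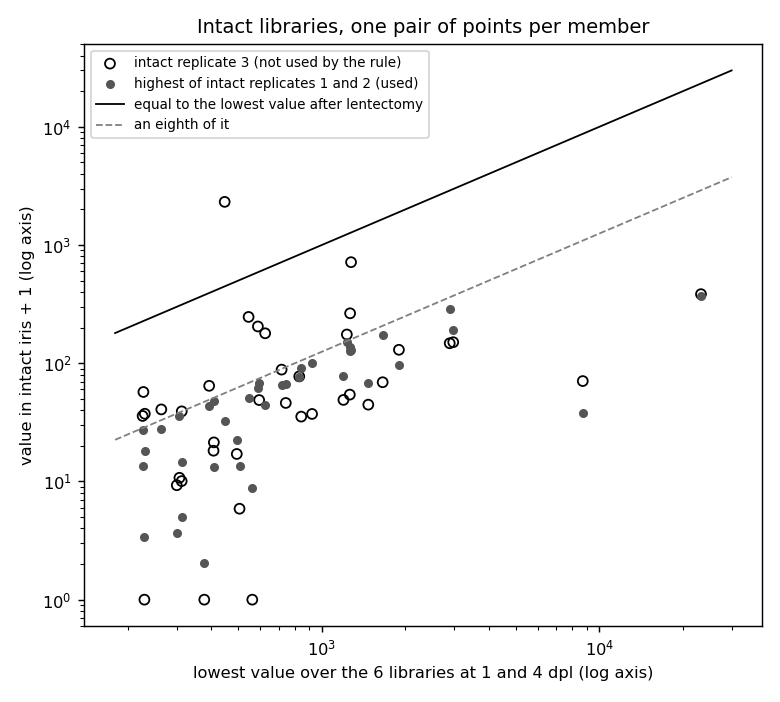
Value plus 1 in intact iris against the lowest value over the 6 libraries at 1 and 4 dpl (log axes) for the 38 members. Open circles are intact replicate 3 and filled points the highest of intact replicates 1 and 2. Of the open circles, 37 lie below the solid line of equality and 1 above it. The value in intact replicate 3 was under an eighth (dashed line) in 26 members without the added 1 and in 25 with it.

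The members with the lowest intact values remained low there. It listed mRNA43853 and members 18 and 34 at 0, and members 29 and 35 at 8.29 and 9.07. It had 383 for mRNA24583 and 69.7 for member 2, under an eighth of their values after lentectomy. Compared with intact replicates 1 and 2, it was above both in 21 members, below both in 12 and between them in 5. Counting it as intact would have left 25 of the 38 members. The 1 member above its lowest later value was member 8, with 2318, against 31.3 and 19.98 in intact replicates 1 and 2. Member 10 followed, with 715 in intact replicate 3 against 63.1 and 128 in intact replicates 1 and 2.

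The size of the set depended on the intact libraries and on the limits of the rule. Without intact replicate 1 the rule took 77 transcripts and without intact replicate 2 it took 91, and both sets held all 38 members. With a factor of 4 in place of 8 it took 109, and with a factor of 16 it took 14. At the limit of 200, the member just inside had a lowest value of 226 and the transcript just outside had 198. At the factor of 8, they had 8.07 and 7.98. At the ratio of 0.5 they had 0.537 and 0.495, and at the ratio of 2 they had 1.97 and 2.26. Without the condition on the ratio, 50 transcripts were raised at both times, of which 5 had a 4 dpl mean more than 2 times the 1 dpl mean and 7 had one under 0.5 times.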

How the data were processed

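RNA from 9 dorsal iris libraries was sequenced. The authors used Trim Galore for trimming, STAR for alignment, StringTie for assembly and Salmon for quantification. Tool versions and the build of the genome were not given in the sources used here. The authors deposited 1 value per transcript and library, a signal that they name average TPM. TPM would sum to 1000000 per library and these columns summed to between 17541441 and 22023433. None of the values above 0 was whole, so the depth behind each value is unknown and no count test or counting interval was possible.

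Columns were assigned to libraries by name and label. The rule for members was applied to 8 libraries without intact replicate 3. On the log2(value + 1) scale, the 154825 transcripts whose mean over the 8 libraries was at least 0.5 were tested with limma 3.58.1 in R 4.3.3 (all groups in one model, intensity trend, Benjamini-Hochberg adjustment, threshold 0.05). The fold changes on this scale understate those of low values. The procedure was tested on simulated data, and the outcome is not given here. The simulated spread was independent between transcripts, with changes only at 4 dpl and only in transcripts of higher mean. It does not cover members of low intact level or transcripts that share reads. Plots were drawn with matplotlib 3.10.9 from tables made in pandas 2.3.3.

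The members, lists and tests were chosen with earlier results of these data known. The design had assumed that the IDs might be named; as they were not, the rule allowed 2 IDs, the member with the highest mean after lentectomy and that with the lowest maximum over the kept intact libraries, and the marker lists were not used. Other members singled out were chosen after their values were seen. Alternatives concerned the value added, the minimum, the trend, rescaling, intact replicate 3, the replicate block, the groups fitted, the limits of the rule and each library left out; those for the overlap of 4 dpl and 1 dpl were added after the data were seen.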

Additional observations from a re-analysis of the deposited data

Results flagged for a closer look

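Member 8 had a value of 2318 in intact replicate 3, a library outside the comparisons, against 31.3 and 19.98 in the kept intact libraries. This was above 4 of its 6 values after lentectomy, which were 1675, 1729 and 3653 at 1 dpl and 447, 2541 and 1903 at 4 dpl. The other 37 members were below their lowest later value in that library. The part of the library's low alignment rate in this value was not tested.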

How the results depend on the processing

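The members called against intact numbered 38 at both times, and also 38 with any 1 dpl or 4 dpl library left out. Of all tested transcripts, 1504 were called higher at 1 dpl and 2123 at 4 dpl as reported. With such a library left out, from 820 to 1224 were called higher at 1 dpl and from 1010 to 2201 at 4 dpl. Where 1 intact library remained, the members' median log2 fold change was 4.70 or 4.92 at 1 dpl. It was 4.55 or 4.62 at 4 dpl. That library was assumed to vary like the other groups. Without the intensity trend, 23 members were called at 1 dpl (0.0749% of all tested) and 29 at 4 dpl (0.134%). Between 4 dpl and 1 dpl, 0 were called as reported and 1 with a minimum mean of 20 (5.79% of all tested called), with rescaling to a total of 1000000 (4.94%), or with only the groups compared (0.397%), against 0.648% as reported. The median log2 fold change of the members against intact was 4.73 at 1 dpl and 4.64 at 4 dpl; with 20 added before the logarithm it was 4.05 and 4.11, and after the rescaling 3.97 and 4.05. The direction at 4 dpl against 1 dpl, -0.06 as reported, ranged from -0.13 to 0.02, and it was above 0 only with median-of-ratios rescaling. The median over all tested transcripts for 4 dpl against 1 dpl was -0.24 as reported and -0.01 after rescaling to a total of 1000000, which also left fewer transcripts above the minimum (54868). With a minimum mean value of 20 and no rescaling it was 0.0045, over 45047 transcripts.

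The 38 members became 109 with a factor of 4, 14 with a factor of 16 and 25 with intact replicate 3 counted as intact, and from 41 to 91 with a library left out. Members near 0 in intact iris were 0 under a limit of 1, 4 under 5 and 5 under 10, and 1 when either kept intact library was left out. These limits are in deposited units of unknown scale. The share of the column total without the 5 highest members was 0.00706% in intact iris, 0.160% at 1 dpl and 0.164% at 4 dpl. The number of members without overlap between 4 dpl and 1 dpl was 11 as reported and from 12 to 17 with a library left out. The shares of all transcripts for those smaller sets of libraries are not given here. Wider or stricter limits and fewer libraries change these numbers by construction. For the other changes, the cause was not tested.

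With the replicate number as a block, 38 members were called at 1 dpl (0.512% of all tested) and 38 at 4 dpl (0.765%) against intact and 0 between 4 dpl and 1 dpl (0.329%), so it changed no member's call; the medians were 4.82, 4.70 and -0.06. The labels give same-numbered libraries only a number in common. Over 45047 transcripts, the 7 correlations of their deviations from the group means lay between -0.0806 and 0.00480. Those of differently numbered libraries lay between -0.0521 and 0.0804. The deviations of the 2 kept intact libraries mirror each other, so correlations with them cannot tell same-numbered from other pairs. In all, 133 recalculated values of these results stayed near the reported one and 21 did not. Near was a wide limit for counts, and 38 members becoming 27 or 49 were taken as near. All 108 log2 fold changes of the 2 transcripts named by ID kept their side of the adjusted p threshold. That of mRNA43853 at 4 dpl against 1 dpl ran from -0.11 to 0.55. The rule used the contrasts behind many of these values, so the tallies are a description. The depth behind the values is unknown.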
